A study of Mus musculus with 5 samples.

Results

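The contractile cells described here are 1217 non-dividing 3T3-L1 preadipocytes of day 0 in which Acta2, the smooth muscle alpha actin gene, made up 3000 or more of every 1000000 UMIs. UMIs are the molecule tags that are counted in droplet sequencing. A cell also needed 500 or more detected genes, 10000 or more UMIs, at most 20% of UMIs from the mitochondrial genome, and under 2000 UMIs per 1000000 summed over 10 genes of cell division (Mki67, Top2a, Cdk1, Ccnb1, Ccnb2, Birc5, Ube2c, Cenpf, Nusap1 and Tpx2). They were set against the 1650 non-dividing cells of the same library with less Acta2, called low-Acta2 cells below. Levels are given as CPM, the UMIs of a gene per 1000000 UMIs, either of 1 cell or summed over the cells of a set. The contractile set was 38.2% of the 3182 day 0 cells that passed the filters, with an exact 95% interval of 36.6% to 40.0%, and the other 315 cells were dividing. The whole series holds 21895 cell barcodes in 5 libraries, of which 13672 passed the same filters.

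3T3-L1 is an established mouse fibroblast line that turns into fat cells when it is given an adipogenic cocktail. The study followed this conversion with and without P-G3, a polycation polymer. The contractile set and the low-Acta2 cells both come from the library labelled fibroblasts, taken at day 0 from a culture that had neither the cocktail nor the polymer. The other libraries are of cells under differentiation at day 3 and at day 6, each untreated or with 10 µg/mL P-G3 from induction onwards, and the protocol has cells stay confluent for 2 days before induction. Each condition is 1 library of 1 line, so no value has a replicate of its culture.

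Smooth muscle alpha actin is built into stress fibres, the bundles of actin and myosin by which fibroblasts, myofibroblasts and smooth muscle cells pull on their surroundings. Its gene and those of its partners, such as Tagln, which encodes the actin-binding protein transgelin, and Myl9, which encodes a regulatory light chain of myosin, are classical targets of serum response factor (SRF). SRF binds a DNA motif called the CArG box, together with the cofactor MRTF, which enters the nucleus when free actin monomers run low. In cultured preadipocytes, stress fibres are known to be taken apart early in adipogenesis.

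The 2 promoters printed here are those of Acta2, which defines the set, and of Myl9, which ran most closely with it. Each is a stretch of 300 bases from RefSeq on GRCm38.p6, with 250 bases before and 50 after the annotated start. Capitals mark a CArG box, counted on either strand, or a site that differs from it at 1 of its 6 central A/T positions. Acta2 lies at chr19:34255324-34255623 on the minus strand, with 2 sites of the looser form, starting 84 and 34 bases before the start. Myl9 lies at chr2:156775214-156775513 on the plus strand, with 1 full box and 1 looser site, starting 161 and 99 bases before the start.
Acta2: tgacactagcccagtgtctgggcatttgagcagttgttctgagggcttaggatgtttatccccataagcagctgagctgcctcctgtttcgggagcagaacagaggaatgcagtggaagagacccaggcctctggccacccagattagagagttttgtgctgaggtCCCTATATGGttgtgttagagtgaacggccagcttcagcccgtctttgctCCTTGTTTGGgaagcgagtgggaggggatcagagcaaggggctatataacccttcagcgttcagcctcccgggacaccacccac
Myl9: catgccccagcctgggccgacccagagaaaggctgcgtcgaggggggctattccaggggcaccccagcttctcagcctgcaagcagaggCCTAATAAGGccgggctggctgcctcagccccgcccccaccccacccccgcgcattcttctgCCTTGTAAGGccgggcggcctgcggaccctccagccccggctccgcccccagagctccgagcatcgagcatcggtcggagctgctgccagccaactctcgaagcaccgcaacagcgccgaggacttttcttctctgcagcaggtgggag

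A full CArG box occurred in 1.63% of the 32851 mouse promoters of that length, a full or looser one in 9.98%, and 2 or more in 0.822%. Of the 15 genes highest in the contractile set, 10 had a promoter sequence to search. Of these, 3 had a full or looser site, namely Acta2, Myl9 and Cnn2. Csrp1, Ddah1, Asns, Tpm2, Hacd1, Cav1 and Prss23 had none in any of their windows. Some of these genes have several windows, whereas the shares above are per promoter. These matches are runs of letters, not measured binding.

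Acta2 had no gap in its distribution at the threshold. Among the contractile set its level per cell ran from 3003 to 15416 CPM, with quartiles at 3639, 4363 and 5478. Among the low-Acta2 cells it ran from 0 to 3000, with quartiles at 738, 1558 and 2267. Of the 2867 non-dividing cells, 15 had no Acta2 UMI. The set is therefore the upper stretch of a continuous range, and all its differences from the low-Acta2 cells describe that range in 1 library. None of them was tested, since the cells were chosen from values of the same matrix.

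**Figure D1:**
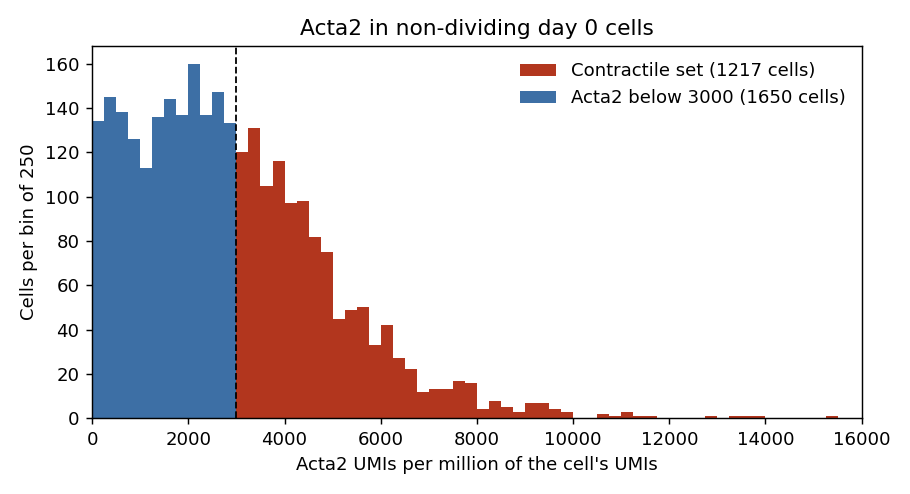
Histogram of Acta2 in non-dividing day 0 cells, in CPM of each cell, with the number of cells per bin of 250 on the y axis. The dashed line at 3000 parts the 1217 cells of the contractile set from the 1650 low-Acta2 cells, and the counts pass over it without a gap.

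The cells of the contractile set were slightly deeper, with a median of 49569 UMIs and 6041 genes, against 43636.5 UMIs and 5874 genes in low-Acta2 cells. Cut to 10000 UMIs each, they held a median of 2830 genes, and low-Acta2 cells 2872. The mitochondrial share was lower in the contractile set, with a median of 2.98% against 3.65%, and 134 of its cells were under 1%, against 99 low-Acta2 cells. Across non-dividing cells the Spearman correlation between Acta2 and total UMIs was 0.24, where both values come from the same cell. The part of depth and mitochondrial content in the differences was measured only by leaving cells out or by cutting them to 10000 UMIs. With cells of 30000 to 60000 UMIs alone, 5 genes were 2-fold higher and 7 were 2-fold lower. Cut cells gave 6 and 10, and cells at 1% or more mitochondrial UMIs 6 and 9. Of the ratios of 133 named genes, 47, 65 and 20 moved beyond their counting interval in these 3 runs, in that order.

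Below, a quartile is of levels over cells, any other level is of the summed UMIs of a set, and ratios are log2 of the CPM plus 1 in the contractile set over the CPM plus 1 in low-Acta2 cells. Of 5172 genes at 20 CPM or more in either set, 5 were at least 2-fold higher in the contractile set, or 0.0967%, and 9 were at least 2-fold lower, or 0.174%. Of the same genes 46% were higher and 54% lower by any amount, but TMM scaling turned this to 59.4% and 40.6%, so small ratios have no firm sign. At 1.5-fold the counts were 33 higher, or 0.638%, and 60 lower, or 1.16%. The set thus differed from low-Acta2 cells by 2-fold in few genes, while smaller differences ran through most genes of chromosome 5, as given below. The 5 higher genes are Actg2, Myl9, Tagln, Acta2 and Csrp1, and each of them encodes an actin or a protein that works with actin filaments. Ratios carry exact 95% intervals that cover counting error only.

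Tagln (ENSMUSG00000032085, chr9:45929619-45936058) had quartiles over cells of 339, 682 and 1158 CPM in the contractile set, against 0, 100 and 309 in low-Acta2 cells. The ranges of the cells overlapped, since some cells of the set had none, 3.04%, and some low-Acta2 cells reached 2352. Summed, Tagln was at 874 CPM in the set and 246 CPM in low-Acta2 cells, a log2 ratio of 1.83 (1.81 to 1.85). In cells cut to 10000 UMIs, 92.1% of the set and 56.2% of low-Acta2 cells had a Tagln UMI, and uncut cells gave 97.0% and 74.0%.

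Myl9 (ENSMUSG00000067818, chr2:156775420-156781658) had quartiles of 104, 218 and 395 CPM in the contractile set and 0, 25.6 and 86.9 in low-Acta2 cells. A Myl9 UMI was found in 77.9% of cut cells of the set and in 32.3% of cut low-Acta2 cells (93.9% and 61.3% uncut). The log2 ratio was 2.11 (2.08 to 2.17), at 277 CPM against 63.7 CPM. The rule did not use Tagln and Myl9, and the levels of both were higher in the cells it picked. Both were markers of this set chosen with earlier results of these data known. Their levels therefore describe the set and do not test its name. How many of their UMIs in low-Acta2 cells are free RNA was not tested.

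The largest ratio among genes at 20 CPM or more was that of Actg2 (ENSMUSG00000059430, chr6:83512905-83536265), the smooth muscle gamma actin gene. Its quartiles were 48.5, 132 and 296 CPM in the set, against 0, 0 and 46.3 in low-Acta2 cells. Its log2 ratio was 2.28 (2.25 to 2.36), at 210 CPM against 42.6 CPM. Csrp1 (ENSMUSG00000026421, chr1:135720061-135752232) encodes a LIM protein of smooth muscle that acts as a cofactor of SRF. Csrp1 reached 108 CPM in the set, against 49.9 CPM in low-Acta2 cells, a log2 ratio of 1.10 (1.06 to 1.17).

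Among rarer transcripts the same kind of gene came up. Fhl1, a LIM-domain gene of muscle on the X chromosome, had 19.8 CPM in the set and 2.57 CPM in low-Acta2 cells, a log2 ratio of 2.55. Acta1, the skeletal muscle actin gene, had 13.0 CPM against 2.57 CPM, a log2 ratio of 1.97, and was found in 8.63% of cut cells of the set and 2.24% of cut low-Acta2 cells. Lmod1, whose product leiomodin nucleates actin filaments in smooth muscle, had 7.05 CPM against 1.93 CPM, a log2 ratio of 1.46. The actin genes are alike in sequence, and how the authors' counting shared out reads that fit several of them is not given in the sources used here.

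The actins split by type. Acta2 chose the cells, and its log2 ratio of 1.59 is no finding. Of the actins the rule did not use, the muscle actins Actg2 and Acta1 stood at 2.28 and 1.97. The cytoplasmic actins Actb and Actg1 had log2 ratios of 0.11 and 0.23, at 6854 CPM for Actb in the set and 6351 CPM in low-Acta2 cells. Actb lies on chromosome 5, and its ratio was larger among cells of like chromosome 5 content. In 4 groups of cells parted by that content, given below, Actb had 0.42, 0.36, 0.34 and 0.36. Actg1 had 0.08, 0.10, 0.08 and 0.11 in the same groups. Across the 8963 genes at 5 CPM or more, 40.8% were higher, 59.2% were lower, and the median was -0.04. With TMM scaling 53.4% of them were higher.

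Of 12 actin-binding contractile genes at 5 CPM or more, 11 were higher and 1 was lower, with a median of 0.48, and 6 passed 1.5-fold, against 0.536% of all such genes. The tropomyosin genes Tpm2 and Tpm1, whose products lie along the filament, had log2 ratios of 0.73 and 0.63. The calponin gene Cnn2 had 0.71 and Tagln2 0.61, whereas Tpm3 and the caldesmon gene Cald1 had 0.07 and 0.12. The cardiac troponin gene Tnnt2 was the member that was lower, at 60.7 CPM in the set and 76.1 CPM in low-Acta2 cells.

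Myosin genes other than Myl9 differed little. The list of 13 myosin and myosin control genes had 9 higher and 4 lower and a median of 0.11. The essential light chain gene Myl6 stood at 0.48, the non-muscle heavy chain genes Myh9 and Myh10 at 0.09 and -0.20, and the kinase genes Rock1 and Rock2 at -0.23 and -0.07. Rhoa, the small GTPase that drives stress fibre assembly, stood at 0.15. Of the SRF list, with 8 genes measured, Srf itself was at 10.5 CPM in the set and 7.08 CPM in low-Acta2 cells, a log2 ratio of 0.50, and the cofactor genes Mrtfa and Mrtfb were at 0.08 and -0.11.

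Of 8 genes listed as markers of late smooth muscle, 3 reached 5 CPM, namely Actg2, Lmod1 and Smtn, and all 3 were higher, Smtn by a log2 ratio of 0.10. Others of mature smooth muscle were close to absent. Cnn1, the smooth muscle calponin gene, gave 12 UMIs in the whole contractile set and 7 in low-Acta2 cells. Myh11, the smooth muscle myosin heavy chain gene, was found in 4 cells of the set and in 0 low-Acta2 cells, where a limit of 3 counts allows a share of cells with a UMI of up to 0.182%. Myocd, the smooth muscle cofactor of SRF, was found in 1 cell of the set and in 0 low-Acta2 cells. At this depth Cnn1, Myh11 and Myocd were thus not detectable in nearly all cells of the set.

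**Figure D2:**
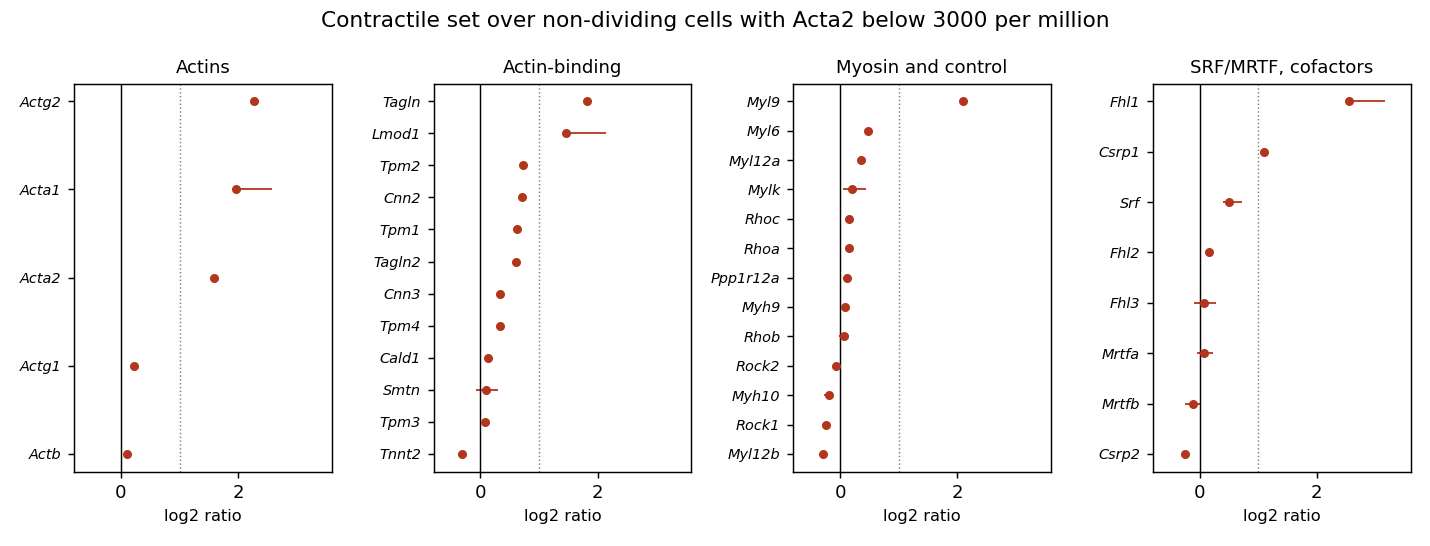
Log2 ratios of the contractile set over low-Acta2 cells for the genes of 4 contractile lists at 5 CPM or more, as points with 95% counting intervals of the ratio taken without the added 1. The dotted line marks a 2-fold difference, and Fhl1, Actg2, Myl9, Acta1 and Tagln lie farthest to the right.

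Markers of pericytes, endothelium, immune cells and skeletal muscle were near 0 in both sets. Summed over their lists, pericyte markers had 1.92 CPM in the set and 1.96 CPM in low-Acta2 cells, endothelial markers 0.305 and 0.261 CPM, and immune markers 2.71 and 2.24 CPM. None of the markers in these 3 lists reached 5 CPM. Skeletal muscle markers gave no UMI in the set. The cartilage factor gene Sox9 stood at 110 CPM in the set and 127 CPM in low-Acta2 cells, and the bone factor gene Runx2 at 14.8 and 16.3 CPM.

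The preadipocyte gene Dlk1, whose product restrains adipogenesis, was close in level, with 2109 CPM in the set, 2168 CPM in low-Acta2 cells and a log2 ratio of -0.04. Of 13 preadipocyte and progenitor markers at 5 CPM or more, 4 were higher and 9 lower, with a median of -0.11. Thy1 was at 140 CPM in the set and 101 CPM in low-Acta2 cells, and the stem cell antigen gene Ly6a at 96.5 and 129 CPM. Pdgfra, a receptor gene of fat progenitors on chromosome 5, was at 25.9 and 44.0 CPM, a log2 ratio of -0.74.

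Adipogenic regulators did not set the cells apart in a uniform way. Pparg, the master regulator of fat cells, had 14.2 CPM in the set and 14.7 CPM in low-Acta2 cells, and Cebpb 239 and 238 CPM. Cebpd was at 53.3 CPM in the set and 35.7 CPM in low-Acta2 cells, a log2 ratio of 0.57, and Klf5 at 17.7 and 25.5 CPM. The fatty acid carriers ran opposite to each other. Fabp5 was at 625 CPM in the set and 372 CPM in low-Acta2 cells, a log2 ratio of 0.75, whereas Fabp4, the fat cell form, was at 23.8 and 34.4 CPM, a log2 ratio of -0.51 whose sign differed between cells of unlike chromosome 5 content, as given below. The fat cell hormone gene Adipoq gave a UMI in 0 cells of the set, where a limit of 3 counts allows a share of cells with a UMI of up to 0.247%, and in 1 low-Acta2 cell.

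Focal adhesion genes, which anchor stress fibres to the membrane, were nearly all higher by small amounts. Of 25 measured, 23 were higher, none passed 1.5-fold, and the median was 0.32. Tgfb1i1, Pdlim7, Pdlim1 and Parva, which encode proteins of adhesions and stress fibres, had log2 ratios of 0.56, 0.55, 0.55 and 0.54. Flna, Zyx and Vcl, for filamin A, zyxin and vinculin, had 0.51, 0.47 and 0.42. The members that were lower were Itgb5 and Pxn. Pxn, for the adaptor paxillin, lies on chromosome 5 and had 14.0 CPM in the set and 20.5 CPM in low-Acta2 cells. Cav1, which encodes the coat protein of caveolae, stood at 0.70. Its quartiles over cells were 303, 434 and 594 CPM in the set and 147, 251 and 379 in low-Acta2 cells. Of 6 caveolae genes 5 were higher, with a median of 0.15. In 4 groups of cells parted by chromosome 5 content, given below, Cav1 had 0.63, 0.36, 0.40 and 0.57. In the second of these groups 3 caveolae genes were higher and 3 lower, with a median of 0.004.

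Collagen genes, which myofibroblasts make in quantity, differed by less than 1.5-fold. Of 15 collagen genes 12 were higher and 3 lower, with Col1a1 at 0.23, Col3a1 at 0.16 and a median of 0.20. The crosslinking enzyme gene Lox stood at 0.37, the collagen chaperone gene Serpinh1 at 0.35 and fibrillin gene Fbn1 at 0.53. Mfap5, for a microfibril protein, was at 17.2 CPM in the set and 7.54 CPM in low-Acta2 cells, a log2 ratio of 1.09. Thbs2, for the matrix protein thrombospondin 2, was at 25.5 CPM in the set and 51.3 CPM in low-Acta2 cells, a log2 ratio of -0.98. Of the 13 measured genes of the list of other matrix proteins, which holds Fbn1, Mfap5 and Thbs2, 8 were higher and 5 lower. The TGF-beta and BMP list had 9 of 22 members higher and a median of -0.01, but 14 of 22 with TMM scaling. Ccn2, a common readout of TGF-beta and YAP, was at 2.79 CPM in the set and 1.97 CPM in low-Acta2 cells, while Ccn5, Ccn1 and Ccn4 had log2 ratios of 0.53, 0.44 and 0.44.

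The lowest log2 ratio among genes at 20 CPM or more was that of Spp1. Spp1, for the cytokine and matrix protein osteopontin on chromosome 5, had quartiles of 61.4, 277 and 737 CPM in the set and 318, 975 and 2438 in low-Acta2 cells, with cells of both sets at 0. Its summed level was 551 CPM in the set and 1730 CPM in low-Acta2 cells, a log2 ratio of -1.65 (-1.67 to -1.63). The BMP antagonist gene Grem1 was at 47.2 CPM in the set and 134 CPM in low-Acta2 cells, a log2 ratio of -1.49. Dcn, for the proteoglycan decorin, was at 70.3 and 186 CPM, a log2 ratio of -1.39, and Aebp1, for a collagen-binding protein, at 57.7 and 140 CPM, a log2 ratio of -1.27.

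Ccl8, Slpi, Sparcl1 and Serpine2 were also lower by 2-fold or more. Ccl8, a chemokine gene, had 7.23 CPM in the set and 20.7 CPM in low-Acta2 cells. Of 12 chemokine and cytokine genes, Spp1 included, 9 were lower and 3 higher, with a median of -0.44. Lower by over 1.5-fold were 6, against 1.71% of genes at 5 CPM or more. The list holds 3 genes of chromosome 5, where most genes were lower, as given below. With both sets weighted to the same mix of chromosome 5 content, 4 genes were higher and 8 lower, with a median of -0.17. The monocyte attractant gene Ccl2 was at 186 CPM in the set and 300 CPM in low-Acta2 cells, whereas Cxcl12 was at 718 and 612 CPM. The sign for Ccl2 differed between cells of unlike chromosome 5 content. In 4 groups of cells parted by that content, given below, its log2 ratios were 0.21, -0.38, -0.66 and 0.29. The first group holds only 32 low-Acta2 cells and the fourth only 25 cells of the set. Mmp3, a stromal protease gene, had 1.55 CPM in the set and 6.47 CPM in low-Acta2 cells.

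Some metabolic lists leaned to a side without large ratios. Of all genes at 5 CPM or more, 40.8% were higher by any amount, or 53.4% with TMM scaling, and 0.536% were higher by 1.5-fold. Of 16 genes of the amino acid response driven by ATF4, 15 were higher, with a median of 0.39, and 4 passed 1.5-fold. Those were Slc7a5 at 0.85, Trib3 at 0.81, and Asns and Chac1 at 0.74 each. Asns, the asparagine synthetase gene, had quartiles over cells of 230, 355 and 490 CPM in the set and 82.8, 175 and 320 in low-Acta2 cells. Of 17 glycolysis genes 14 were higher with a median of 0.30, among them Tpi1 at 0.48, Ldha at 0.44 and Gapdh at 0.42. Of 22 cholesterol synthesis genes 21 were lower with a median of -0.26. All 13 mitochondrially encoded genes were lower, with a median of -0.31, beside the lower mitochondrial share given above, while 38 of 78 nuclear respiratory chain genes were higher, or 55 with TMM scaling.

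Cell cycle genes differed although the dividing cells were left out by the same rule in both sets. Of 31 genes of S phase 25 were higher in the set with a median of 0.21, and 4 of the 6 lower ones lie on chromosome 5. The replication genes Rrm2, Rpa2, Mcm5 and Pcna stood at 0.46, 0.40, 0.36 and 0.26. Hist1h1b and Hist1h1e, linker histone genes outside this list, stood at -0.24 each. The sign of both differed between cells of unlike chromosome 5 content. The cell cycle inhibitor gene Cdkn1a was at 103 CPM in the set and 146 CPM in low-Acta2 cells, a log2 ratio of -0.50, and Gas1, a growth arrest gene, at 316 and 441 CPM, a log2 ratio of -0.48. The summed 10 dividing genes, which were capped by the rule, had a median of 347 CPM in the set and 214 in low-Acta2 cells.

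Over the whole range of Acta2 the contractile genes climbed together. The low-Acta2 cells and the contractile set were each cut into 4 bins of equal size by Acta2. From the lowest to the highest of the 8 bins, Tagln was at 55.7, 156, 300, 432, 618, 712, 866 and 1274 CPM. Myl9 was at 15.3 CPM in the lowest bin and 421 CPM in the highest, and Actg2 at 7.64 and 353 CPM. Spp1 ran the other way, with 3138 CPM in the lowest bin and 332 CPM in the highest, as did Dcn, with 352 and 55.8 CPM. Dlk1 stayed between 2073 and 2313 CPM in all 8 bins.

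**Figure D3:**
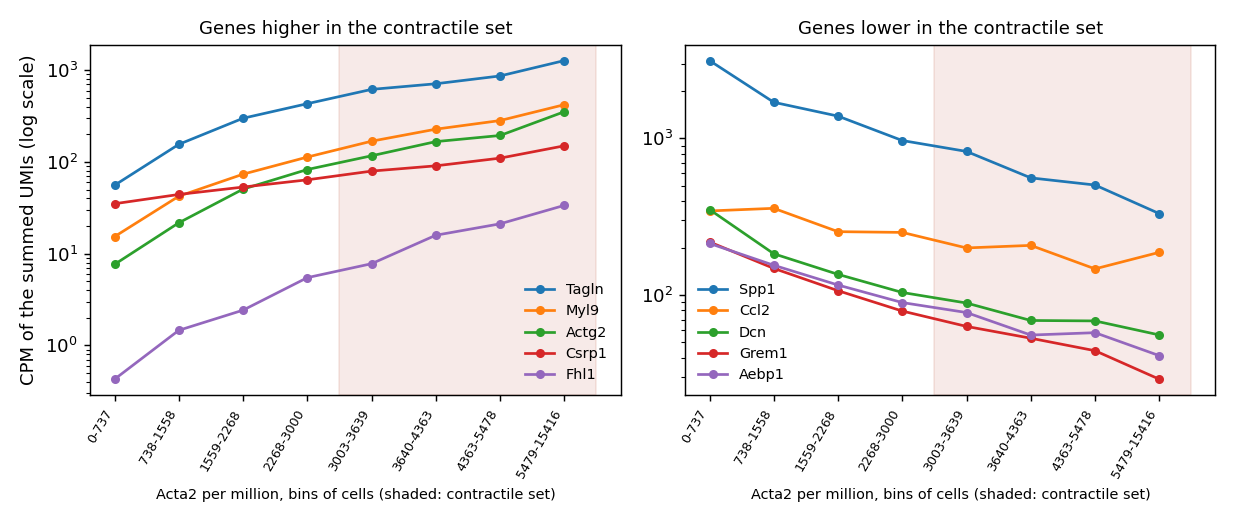
Summed level (CPM, log axis) of 5 genes that were higher and 5 that were lower in the contractile set, over 8 bins of non-dividing day 0 cells ordered by Acta2. The shaded bins are the contractile set, and no line steps at the edge of the shading.

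Just above the threshold, the 251 cells with 3000 to 3500 Acta2 CPM had 580 CPM of Tagln, 164 CPM of Myl9 and 850 CPM of Spp1. Just below it, the 280 cells with 2500 to 3000 had 455 CPM of Tagln, 116 CPM of Myl9 and 905 CPM of Spp1. These values are close, so the set has no sharp border in other genes either. Over all 2867 non-dividing cells the genes with the highest Spearman correlation with Acta2 were Myl9 at 0.70, Tagln at 0.69, Actg2 at 0.65, and Dstn, for an actin-severing protein, and Myl6 at 0.59 each. Cav1, Tpm2, Tagln2, Asns and Tmsb4x followed, between 0.54 and 0.51. The lowest were Atp5j2 and Lamtor4 at -0.48, Tomm7 at -0.46, Spp1 at -0.44 and Grem1 at -0.43, and the first 4 of these lie on chromosome 5.

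Variation within the contractile set was ranked by the variance beyond counting, divided by the squared mean. By this measure the highest genes were Mgp, Ank, Ccl2, Hist1h1b, Thbs1, Dcn, Spp1, Cdsn, Hist1h1e and Timp3. The variance divided by that of counting alone puts these genes in another order, with Spp1 at 62.0 and Timp3 at 6.05. Mgp, which encodes an inhibitor of calcification, had a median of 79.4 CPM, an upper quartile of 197 and no UMI in 18.3% of the cells. Spp1 had a 90th percentile of 1542 CPM, and 6.16% of the cells had none. The linker histone gene Hist1h1b, which is transcribed in S phase, had quartiles of 0, 44.4 and 253. No contractile gene was among these 10, and Acta2 was ranked in cells that the rule had chosen by it. Whether a contractile gene would rank as high by the other measure is not given here.

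Genes on chromosome 5 were lower as a block. Of 358 chromosome 5 genes at 20 CPM or more, 349 were lower in the contractile set, or 97.5%, with a median log2 ratio of -0.36, or -0.30 with TMM scaling. On all the other chromosomes together 2446 of 4814 genes were lower, or 50.8%, and the medians of single chromosomes lay between -0.09 for chromosome 11 and 0.09 for chromosome 16. Chromosome 5 held 38 of the 60 genes that were lower by 1.5-fold. The difference ran along its whole length, with medians between -0.32 and -0.43 in 5 windows of 30 Mb. The genes that were not lower included Actb and Psph, the phosphoserine phosphatase gene, with 136 CPM in the set and 104 CPM in low-Acta2 cells.

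**Figure D4:**
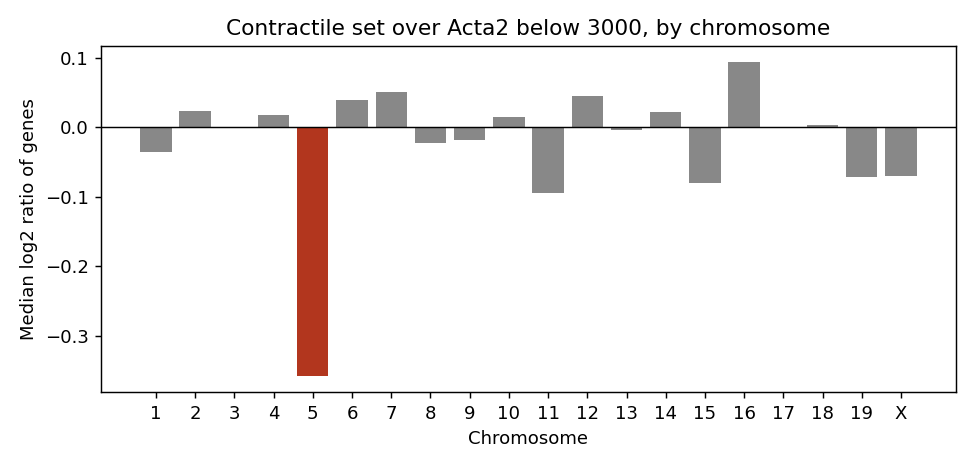
Median log2 ratio of the contractile set over low-Acta2 cells for genes at 20 CPM or more on each chromosome. Chromosome 5, with 358 genes, stands at -0.36, and the others lie between -0.09 and 0.09.

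Cell by cell the share of UMIs from chromosome 5, counted without Spp1, had a median of 5.33% in the contractile set and 6.47% in low-Acta2 cells. The shares fell into separate heaps with peaks at 3.72%, 5.28%, 6.70% and 7.98% of a cell's UMIs. Counting alone would spread them by a standard deviation of only 0.116 percentage points, against 1.38 measured. Relative to its mean, chromosome 5 varied most of all chromosomes between cells, with a coefficient of variation of 22.8%, and chromosome 16 came next with 18.1%. The Spearman correlation of the chromosome 5 share with Acta2 was -0.49 over the 2867 cells.

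**Figure D5:**
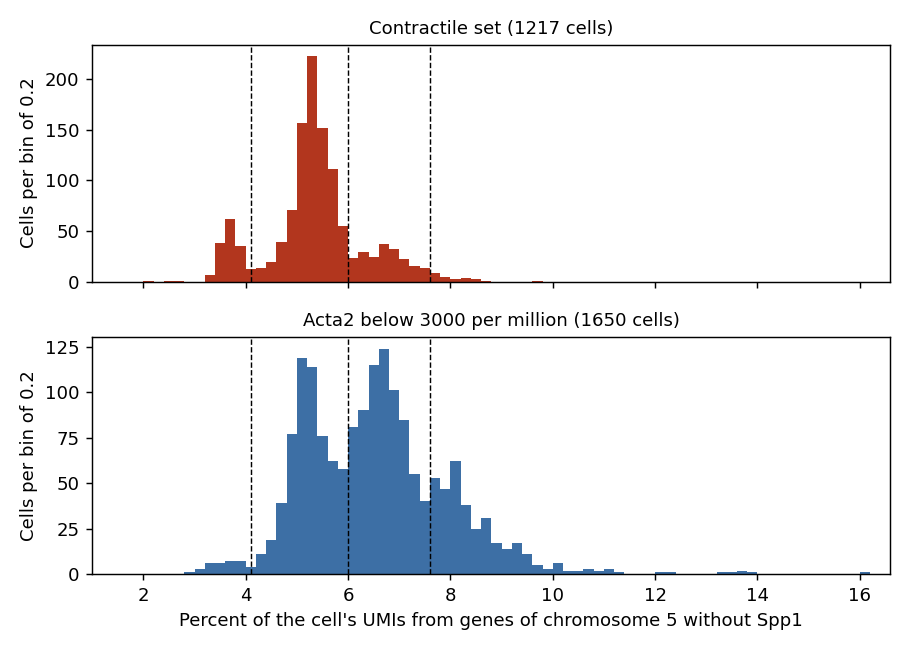
Share of a cell's UMIs that came from chromosome 5 genes other than Spp1, for the contractile set (top) and low-Acta2 cells (bottom), in bins of 0.2 percentage points. Dashed lines at 4.1%, 6.0% and 7.6% part the heaps, and the contractile set lies mainly in the second, with 69.5% of its cells.

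The heaps were parted at 4.1%, 6.0% and 7.6%, limits chosen after seeing the histogram. Since the heaps overlap, cells near a limit cannot be assigned to a heap with certainty. The contractile set made up 82.5% (exact 95% interval 76.2% to 87.7%) of the 183 non-dividing cells with the smallest chromosome 5 share. It made up 59.5% (56.8% to 62.0%) of the 1423 cells in the second heap, 22.0% (19.3% to 24.9%) of the 886 in the third and 6.67% (4.36% to 9.68%) of the 375 in the fourth. Median Acta2 was 4659, 3437, 1934 and 799 CPM in the 4 heaps in that order. So the part of cells rich in Acta2 fell from heap to heap as the chromosome 5 share rose. This was a tendency only, since the second heap held 69.5% of the set and also 35.0% of low-Acta2 cells. Median depth was 50690, 48170, 44645 and 41304 UMIs. DNA was not measured in these cells, and whether the heaps differ in copies of chromosome 5 was not tested.

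The contractile genes were higher within every heap. Tagln had log2 ratios of 1.54, 1.58, 1.69 and 2.59 from the first heap to the fourth, and Myl9 1.67, 1.61, 1.95 and 2.42. Dcn lay between -1.15 and -0.97 in the 4 heaps, and Aebp1 at -0.52, -1.01, -0.88 and -0.92. Grem1, at -1.49 over all cells, was at -0.63, -0.95, -0.78 and -1.38, short of 2-fold in 3 of the 4 heaps. The first heap holds only 32 low-Acta2 cells and the fourth only 25 cells of the set. Spp1 was reduced to -0.47, -0.65, -0.57 and -1.05, and its level in low-Acta2 cells was 381 CPM in the first heap and 3921 CPM in the fourth. Prkg2, a kinase gene on chromosome 5 with a log2 ratio of -0.83 over all cells, had 0.09, -0.07, -0.08 and -0.32. The median of all chromosome 5 genes within heaps was 0.02, -0.03, -0.06 and -0.19.

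In the second heap alone, with 846 cells of the set and 577 low-Acta2 cells, 5 of 5130 genes were 2-fold higher, or 0.0975%, and 3 were 2-fold lower, or 0.0585%. In the third heap 4 were higher, or 0.0766%, and 2 lower, or 0.0383%. In the thinly filled heaps, the first and the fourth, 10 and 13 were higher, or 0.198% and 0.237%, and 17 and 30 lower, or 0.337% and 0.546%. The higher ones in the second heap were Fhl1, Actg2, Myl9, Tagln and Acta2, and the lower ones included Dcn and Aebp1. In that heap 4284 of the 8927 genes at 5 CPM or more were higher and 4643 lower. All 31 S phase genes were higher, with a median of 0.48. The chemokine list had 4 genes higher and 7 lower with a median of -0.20, and the cholesterol list 1 and 21 with a median of -0.09. Csrp1 was at 0.90, short of 2-fold, and Cdkn1a at -0.64. Fabp4 had 21.0 CPM in the set and 16.9 CPM in low-Acta2 cells of that heap, a log2 ratio of 0.30, and over the 4 heaps its ratios were -0.91, 0.30, 0.35 and -0.31.

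Tagln, Myl9 and Actg2 were also higher with Acta2 in dividing cells, which the rule had left out. Of the 315 dividing cells of day 0, 121 were at or above 3000 Acta2 CPM, or 38.4%. Those had 981 CPM of Tagln, 266 CPM of Myl9 and 226 CPM of Actg2, against 271, 64.0 and 43.8 CPM in the 194 dividing cells below. Spp1 was at 535 CPM in the dividing cells above the threshold and 1631 CPM in those below, and Dcn at 38.1 and 139 CPM.

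Cells past the same thresholds were scarce under differentiation. They were 142 of 2778 non-dividing cells at day 3 untreated, or 5.11%, and 51 of 2956 at day 3 with P-G3, or 1.73%. At day 6 they were 40 of 1515 untreated, or 2.64%, and 44 of 1852 with P-G3, or 2.38%, against 42.4% of non-dividing cells at day 0. No Acta2 UMI was found in 35.1% of non-dividing cells at day 3 untreated and in 65.8% at day 6 untreated, while day 0 had 0.523%. Cells below the Acta2 threshold had median depths of 33317 UMIs at day 3 untreated and 54726 at day 6 untreated, against 43636.5 at day 0. With 1 library per condition, time, treatment and library cannot be told apart.

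The contractile genes set those few cells apart as well. At day 6 untreated, Tagln was at 408 CPM in cells at or above the Acta2 threshold and 6.70 CPM in cells below, and Myl9 at 201 and 2.78 CPM. At day 6 with P-G3, Tagln was at 164 and 3.56 CPM, and Myl9 at 216 and 4.09 CPM. Fabp4, high in fat cells, was at 5072 CPM in the day 6 untreated cells above the threshold and 23193 CPM in those below. At day 3 untreated it was at 807 and 7944 CPM.

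Beyond these genes the cells above the threshold differed from the rest of their libraries in more genes than at day 0. These sets hold 40 to 142 cells, against 1217 at day 0. In the day 0 heap with 25 cells of the set, 0.237% of genes were 2-fold higher and 0.546% lower. In the day 0 heap with 32 low-Acta2 cells, 0.198% were higher and 0.337% lower. Whether cell number or the higher Fabp4 of the later cells below the threshold plays a part in these shares was not tested. Of genes at 20 CPM or more, 1.9% were 2-fold higher and 2.69% lower at day 3 untreated, and 3.7% and 5.11% at day 3 with P-G3. At day 6 the shares were 6.82% and 10.8% untreated and 5.56% and 9.67% with P-G3. Chromosome 5 genes were lower there too, in 298 of 369 genes at day 3 untreated, 262 of 328 at day 3 with P-G3, 295 of 389 at day 6 untreated and 262 of 315 at day 6 with P-G3. Their median log2 ratios were -0.27, -0.41, -0.41 and -0.43 in the order day 3 untreated, day 3 P-G3, day 6 untreated and day 6 P-G3, against -0.05, -0.09, -0.11 and -0.13 on other chromosomes.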

How the data were processed

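The authors deposited, for each of 5 libraries, a matrix of raw UMI counts per gene and cell barcode. The submitters' processing notes name Cell Ranger 3.1.0 and GRCm38, but the file headers name 5.0.1, which leaves the version uncertain. Per the labels' protocols the kit was Chromium single cell 3' v2. Library totals ran from 92556168 to 179449285 UMIs, and day 0 had 158792855. Pairs of libraries shared 4 to 7 barcodes. The matrices had 32285 genes, of which 32235 have a position in GENCODE vM21.

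UMIs were summed over the 1217 and 1650 cells and expressed as CPM with a pseudocount of 1 CPM, which understates ratios of low genes. Intervals are exact at the 95% level (conditional binomial for ratios, Clopper-Pearson for shares) and cover counting error only; for 0 cells the limit is 3 counts of the total. Calls used a minimum of 20 CPM, lists 5 CPM. Python 3.11.15, numpy 2.4.6, scipy 1.17.1 and pandas 2.3.3 were used, and the procedure was checked on simulated counts. No doublets were removed, and a run without the 5% of cells with most UMIs stands in for that. Clusters were not used. The genes named are the 15 highest and 15 lowest at 50 CPM or more, the 10 highest and 5 lowest by correlation with Acta2, the 10 most variable among the members, fixed anchor genes and the extremes of 32 lists. Others were named after their values were seen. The members and lists were chosen with earlier results of these data known. With 1 library per group, no test was made. The analysis on chromosome 5 was added after seeing the data. Some results are not reported here.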

Additional observations from a re-analysis of the deposited data

Results flagged for a closer look

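Some of the genes lowest in contractile cells at day 0 were higher in the cells above the same Acta2 threshold at later times, a difference in direction between single libraries that was not tested. Spp1, at -1.65 on day 0, had a log2 ratio of 1.03 at day 6 untreated and 0.45 at day 3 untreated, but -0.33 at day 3 with P-G3 and -0.07 at day 6 with P-G3. Dcn, at -1.39 on day 0, had 0.27 at day 3 untreated, 1.18 at day 3 with P-G3, 1.12 at day 6 untreated and 0.93 at day 6 with P-G3. Grem1, at -1.49 on day 0, had 1.04, 1.06, 2.13 and 0.81 in the same order, the last from 3 UMIs above the threshold. Aebp1, at -1.27 on day 0, had 0.23, 0.89, 1.53 and 2.02. Serpine2, at -1.02 on day 0, had 1.12, 0.62, 1.45 and 0.76. Of the 15 lowest genes of day 0, 9 were higher and 6 lower at day 3 untreated. At day 3 with P-G3 they were 11 and 4, at day 6 untreated 12 and 3, and at day 6 with P-G3 11 and 4. By 2-fold or more, 4, 4, 9 and 5 of them were higher in that order. Of all genes at 20 CPM or more, 1.9%, 3.7%, 6.82% and 5.56% were 2-fold higher. The share of all genes higher by any amount is not given here. Of 14 of the 15 highest genes of day 0, 12, 11, 12 and 10 stayed higher, and 2, 3, 2 and 4 were lower. These later sets hold 142 cells at day 3 untreated, 51 at day 3 with P-G3, 40 at day 6 untreated and 44 at day 6 with P-G3, and the cells they are set against have much more Fabp4, as given above. The part of that background in these ratios was not tested.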

How the results depend on the processing

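The contractile set, with 1217 cells, held 393 at an Acta2 threshold of 5000 CPM and 699 at a dividing threshold of 500 CPM. The 5 genes 2-fold higher became 8 at an Acta2 threshold of 2000, 10 at a minimum of 5 CPM and 12 with no minimum. The 9 genes 2-fold lower became 21 at 5 CPM, 30 with no minimum, 5 at a minimum of 50 CPM, 5 with a pseudocount of 10 CPM, 3 among cells with 4.1% to 6.0% of UMIs from chromosome 5, and 4 with both sets weighted to the mix of chromosome 5 heaps found in low-Acta2 cells. A changed minimum tests more or fewer genes by construction, and for the other counts the cause was not tested. Of 24 alternatives, 4 of them chosen after seeing the data, 21 give gene ratios, and over these the 133 genes gave 2775 ratios, of which 969 moved beyond their counting interval, 48 had the opposite sign and none of the 2-fold genes changed side. The ratio of Tagln ran from 1.53 to 3.07, of Myl9 from 1.61 to 2.50, of Actg2 from 1.76 to 2.86, of Dcn from -1.50 to -1.03, and of Spp1 from -1.93 to -0.65. Weighted by heap, Spp1 was at -0.78, Serpine2 at -0.40, Cyp51 at -0.31 and Fabp4 at 0.09. Cells chosen by Tagln in place of Acta2 shared 868 members, or 71.3%, and their chromosome 5 median was -0.22. The median of all genes at 20 CPM was -0.02, and 0.04 and 0.05 with TMM and median-of-ratios scaling, and lists whose median lies within that shift of 0 have no firm direction. No paired analysis was possible because each group is 1 library. A count of 3 UMIs corresponds to 0.0481 CPM in the contractile set and 0.0391 CPM in low-Acta2 cells, which limits what can be said of Cnn1, Myh11 and Myocd.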

Other observations

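Some gene groups outside the contractile programme were counted as well. Of 87 ribosomal protein genes at 5 CPM or more, 46 were higher in the contractile set and 41 lower, with a median log2 ratio of 0.01, and with TMM scaling 64 were higher. Among cells with 4.1% to 6.0% of UMIs from chromosome 5, however, 12 of them were higher and 75 lower, with a median of -0.08, and with both sets weighted to the mix of chromosome 5 heaps in low-Acta2 cells 15 were higher and 72 lower. Of 16 chaperones of the endoplasmic reticulum 8 were higher and 8 lower, or 12 higher with TMM scaling, with Hspa5, the main one, at 500 CPM in the set and 464 CPM in low-Acta2 cells. Of 17 immediate early genes 9 were higher and 8 lower, with Fos at 28.6 and 23.6 CPM, while among cells with 4.1% to 6.0% of UMIs from chromosome 5, 5 were higher and 12 lower, and weighted by heap 6 were higher and 11 lower. Of 6 interferon-induced genes, with a median of 0.22, 5 were higher, among them Isg15 at 14.8 CPM in the set and 8.19 CPM in low-Acta2 cells.

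The heaps of chromosome 5 share were seen at the later times too. Non-dividing cells had their highest peak at 5.04% of UMIs at day 3 untreated, 4.96% at day 3 with P-G3, 4.58% at day 6 untreated and 4.56% at day 6 with P-G3. The next peak by height was at 6.24%, 6.40%, 5.84% and 5.76% in the same order. On day 0 dividing cells made up 7.11%, 8.37%, 9.59% and 17.0% of the cells in the 4 heaps, from the smallest share of chromosome 5 to the largest.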
